A study of Homo sapiens with 4 samples.

Results

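The 9 genes described here mark the thyroid follicular cell, and were taken by name from the deposited table: the transcription factors PAX8, NKX2-1, FOXE1 and HHEX, and the genes TG, TSHR, SLC5A5, SLC26A4 and DIO2, which serve hormone synthesis and iodide handling. They are 9 of 58884 genes in the table. RNA came from B-CPAP and TPC-1, established human lines of papillary thyroid carcinoma, and 4 libraries were sequenced: B-CPAP at 40 °C, B-CPAP at 37 °C, TPC-1 at 40 °C and TPC-1 at 37 °C, with 1 library each. As background, B-CPAP carries an activating BRAF mutation and TPC-1 a rearrangement that joins RET to CCDC6. Cells were held in submerged T25 flasks at either temperature, and the labels give the length as 15 min, as 20 min and as 24 h, so it is left unstated here. The comparison of temperatures asks what heat does to thyroid cancer cells, and that of lines which parts of thyroid identity each line still transcribes.

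In the embryonic and adult thyroid, NKX2-1, PAX8, FOXE1 and HHEX are expressed together in a combination found in no other tissue, and they jointly activate the genes for hormone synthesis. The follicular cell takes up iodide through the sodium-iodide symporter, encoded by SLC5A5, passes it into the follicle through transporters that include pendrin, encoded by SLC26A4, and couples it to thyroglobulin, encoded by TG. The thyrotropin receptor, encoded by TSHR, drives this programme through cyclic AMP, and DIO2 encodes a deiodinase that converts thyroxine to its more active form. Loss of the symporter and of the receptor is a known feature of thyroid cancers that no longer take up radioiodine.

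Levels are in TPM, a read count divided by gene length and scaled to the same sum in every library. The values rose in steps of whole reads, which gave estimated read counts per gene and depths of 20704699 to 24466562 reads. A level of 3 reads, set here as the limit for a count of 0, was 0.0361 to 0.206 TPM for these genes. With 1 library a group, intervals are exact 95% intervals that cover counting error only. In RNA from a whole culture, a low level in every cell and a high level in few cells cannot be told apart.

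The regions just before the transcription starts are shown for 3 genes picked by hand: PAX8, read in both lines, NKX2-1, read in B-CPAP, and TSHR, with 1 read in all. Each is the 250 bases upstream of a RefSeq start (GRCh38.p14, 5′ to 3′ on the gene's strand), and capitals mark CG dinucleotides, the sites of DNA methylation in vertebrates. NKX2-1 has 2 such starts in the table. The windows are chr2:113278922-113279171 (minus strand) for PAX8, chr14:36520233-36520482 and chr14:36519557-36519806 (minus strand) for the outer and inner start of NKX2-1, and chr14:80955371-80955620 (plus strand) for TSHR.
PAX8: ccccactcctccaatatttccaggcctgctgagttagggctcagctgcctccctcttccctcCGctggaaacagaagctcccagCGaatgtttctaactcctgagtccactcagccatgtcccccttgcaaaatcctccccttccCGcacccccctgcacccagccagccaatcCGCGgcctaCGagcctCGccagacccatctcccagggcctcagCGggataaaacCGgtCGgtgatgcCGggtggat
NKX2-1, outer start: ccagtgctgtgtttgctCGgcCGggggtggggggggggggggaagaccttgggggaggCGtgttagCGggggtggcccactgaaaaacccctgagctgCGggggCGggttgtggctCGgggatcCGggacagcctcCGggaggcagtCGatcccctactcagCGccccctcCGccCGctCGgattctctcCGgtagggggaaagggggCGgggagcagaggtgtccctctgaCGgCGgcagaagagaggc
NKX2-1, inner start: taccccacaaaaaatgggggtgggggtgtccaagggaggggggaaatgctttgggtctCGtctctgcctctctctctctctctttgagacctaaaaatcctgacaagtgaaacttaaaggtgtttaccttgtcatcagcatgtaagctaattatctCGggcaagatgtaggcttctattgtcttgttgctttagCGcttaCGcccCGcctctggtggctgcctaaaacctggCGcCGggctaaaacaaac
TSHR: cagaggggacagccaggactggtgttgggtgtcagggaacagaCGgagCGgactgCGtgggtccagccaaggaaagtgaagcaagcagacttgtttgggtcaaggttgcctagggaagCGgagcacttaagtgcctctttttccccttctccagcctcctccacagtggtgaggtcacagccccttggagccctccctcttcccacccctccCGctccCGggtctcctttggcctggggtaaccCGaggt

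The PAX8 window held 11 CG dinucleotides, the outer NKX2-1 window 18, the inner NKX2-1 window 7 and the TSHR window 7, against a median of 11 over 35116 such windows. Windows were found for 8 of the 9 genes. HHEX had 38 and FOXE1 26, which placed them above 96.7% and 80.4% of windows. SLC26A4 had 14, SLC5A5 8, and the DIO2 windows 1 and 3. The letters CAAGTG, a site form of the NKX2 family, were searched on both strands and stood in the inner NKX2-1 window alone among these genes, and in 9.5% of all windows. TATAAA, searched on the gene's strand, stood before SLC26A4 and before 1 start of DIO2, and in 6.8% of all windows. By its own letters, neither motif can share a base with a CG dinucleotide in any sequence. These are descriptions of reference sequence, and the data hold no measure of methylation or binding.

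Both lines still transcribed PAX8, FOXE1 and HHEX, and B-CPAP also transcribed NKX2-1, of which TPC-1 had no read. None of the other 5 genes reached 1 TPM in any library. At 1 TPM or more in both libraries of a line, B-CPAP held 4 of the 9 genes and TPC-1 held 3, against 56.3% and 55.8% of 19945 protein-coding genes.

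**Figure D1:**
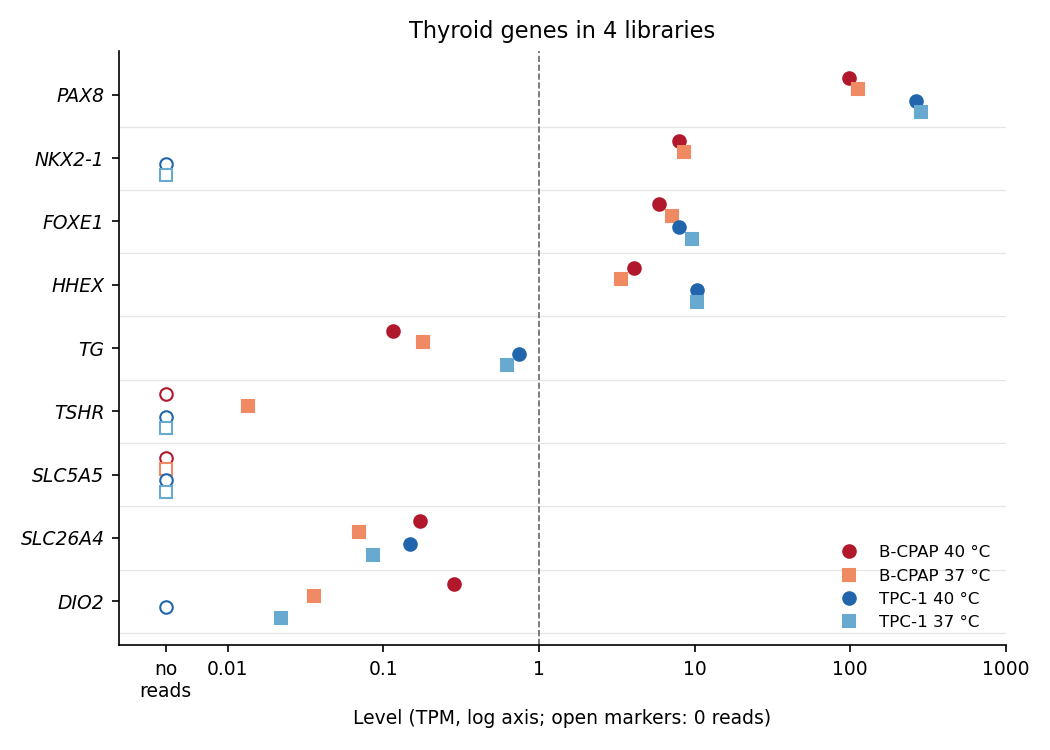
Level of each of the 9 genes in TPM (log axis) in the 4 libraries; each marker is 1 library, open markers on the left stand for 0 reads, and the dashed line is 1 TPM. PAX8 sits at 98.9 to 284.4 TPM, NKX2-1 splits into B-CPAP libraries near 8 TPM and TPC-1 libraries without reads, and the 5 lower genes stay left of 1 TPM.

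PAX8 (ENSG00000125618, chromosome 2, 113215997 to 113278950, GRCh38), a paired-box factor that binds the promoters of TG and SLC5A5, was the most abundant of the 9. It stood at 98.9 TPM in B-CPAP at 40 °C and 111.9 TPM in B-CPAP at 37 °C, against 266.7 TPM in TPC-1 at 40 °C and 284.4 TPM in TPC-1 at 37 °C. Both TPC-1 libraries lay above both B-CPAP libraries. Its level exceeded that of 93.0 to 93.6% of protein-coding genes in B-CPAP and of 97.7% in TPC-1 at each temperature.

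NKX2-1 (ENSG00000136352, chromosome 14, 36516392 to 36521149), a homeodomain factor of thyroid and lung, had 7.90 TPM from 175 reads in B-CPAP at 40 °C and 8.60 TPM from 203 reads in B-CPAP at 37 °C, against 0 reads in both TPC-1 libraries. Set against 3 reads in a TPC-1 library, B-CPAP was 48.2-fold higher at 40 °C and 54.8-fold higher at 37 °C. These folds leave out the counting error of the B-CPAP reads. The groups did not overlap. SFTA3 (ENSG00000229415), a neighbouring gene, had more reads in B-CPAP as well, with 15 and 10 reads in B-CPAP at 40 °C and 37 °C, against 0 and 1 reads in TPC-1. A second gene ID with that symbol, ENSG00000257520, which overlaps NKX2-1, was at 0 in all 4 libraries. The antisense RNA NKX2-1-AS1 had 5 and 1 reads in B-CPAP, against none in TPC-1.

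FOXE1 (ENSG00000178919, chromosome 9, 97853254 to 97856715), a single-exon forkhead factor required for migration of the thyroid bud in mice, stood at 5.95 TPM in B-CPAP at 40 °C and 7.20 TPM in B-CPAP at 37 °C, against 8.0 TPM in TPC-1 at 40 °C and 9.70 TPM in TPC-1 at 37 °C. The ranges of the lines did not overlap, but B-CPAP at 37 °C and TPC-1 at 40 °C lay close together. HHEX (ENSG00000152804, chromosome 10, 92689951 to 92695646), a homeodomain factor of foregut organs and blood, had 4.08 TPM in B-CPAP at 40 °C and 3.35 TPM in B-CPAP at 37 °C, against 10.3 TPM in TPC-1 at 40 °C and 10.4 TPM in TPC-1 at 37 °C. Here the TPC-1 libraries lay well above those of B-CPAP. In B-CPAP the order was thus PAX8, NKX2-1, FOXE1 and HHEX in each library. In TPC-1 it was PAX8, HHEX and FOXE1, and the last pair differed little at 37 °C.

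TG (ENSG00000042832, chromosome 8, 132866958 to 133134903), the scaffold on which thyroid hormone is made and the most abundant product of the healthy gland, was close to silent. B-CPAP had 9 reads (0.116 TPM) at 40 °C and 15 reads (0.181 TPM) at 37 °C, against 48 reads (0.746 TPM) at 40 °C and 42 reads (0.624 TPM) at 37 °C in TPC-1. The B-CPAP to TPC-1 ratio was 0.155 (interval 0.0668 to 0.319) at 40 °C and 0.289 (interval 0.149 to 0.533) at 37 °C. TPC-1, which had no NKX2-1 reads, had more TG reads than B-CPAP, at levels below 1 TPM in both.

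TSHR (ENSG00000165409, chromosome 14, 80954989 to 81146302) had 1 read over all 4 libraries, in B-CPAP at 37 °C. SLC5A5 (ENSG00000105641, chromosome 19, 17871973 to 17895174) had 0 reads in every library. Its limit of 3 reads stood at 0.117 and 0.110 TPM in B-CPAP at 40 °C and 37 °C, and at 0.142 and 0.136 TPM in TPC-1. The iodide symporter was not detectable at this depth in either line. SLC26A4 (ENSG00000091137, chromosome 7, 107660635 to 107717809) had 7 and 3 reads in B-CPAP at 40 °C and 37 °C, against 5 and 3 reads in TPC-1, or 0.173 and 0.0693 TPM against 0.149 and 0.0855 TPM. The lines overlapped for this gene. DIO2 (ENSG00000211448, chromosome 14, 80197527 to 80387757) had 15 reads (0.286 TPM) in B-CPAP at 40 °C and 2 reads (0.0358 TPM) in B-CPAP at 37 °C, against 0 and 1 reads in TPC-1. The single library with more than 2 reads of DIO2 was B-CPAP at 40 °C.

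Between the lines, limma fitted to log2(TPM + 1) over all 14912 genes with a mean of at least 1 TPM, with temperature as a block, called 3 of the 4 transcription factors and could not test the other 5 genes, which fell below that level. The test called 62.7% of all genes, 29.9% higher and 32.8% lower in B-CPAP, so 3 of 4 is near the background. Its own spread for a gene is how far the temperature difference differs between the lines, on 1 residual degree of freedom. It holds no spread between cultures, of which the labels name none. By empirical Bayes, limma draws this spread toward a trend over all genes entered, so each SE and p-value also rests on the other genes. PAX8 was lower in B-CPAP by a log2 difference of -1.38 ± 0.08 (SE, adjusted p = 0.000161), lower at 2 of 2 temperatures. With only protein-coding genes entered, the adjusted p of PAX8 in limma was 8.53e-13 at the same log2 difference. HHEX was lower by -1.27 ± 0.16 (adjusted p = 0.002), also at 2 of 2 temperatures. NKX2-1 was higher by 3.21 ± 0.21 (adjusted p = 0.000286) at 2 of 2 temperatures, a value that the pseudocount sets. With 0 reads in TPC-1, NKX2-1 passed the filter through B-CPAP alone, so no lower call was possible for it. FOXE1 differed by -0.38 ± 0.15 and missed the threshold (adjusted p = 0.0715).

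The counting intervals gave the same order without the model. The B-CPAP to TPC-1 ratio of PAX8 was 0.371 (interval 0.359 to 0.383) at 40 °C and 0.393 (interval 0.382 to 0.406) at 37 °C. For HHEX the ratio was 0.396 (interval 0.295 to 0.528) at 40 °C and 0.321 (interval 0.236 to 0.433) at 37 °C. For FOXE1 it was 0.743 at both temperatures, with intervals of 0.589 to 0.937 at 40 °C and 0.605 to 0.911 at 37 °C. With FOXE1 the counting intervals excluded 1 while limma's adjusted p did not pass 0.05, and on values adjusted for GC content it did (adjusted p = 0.0401). Without either TPC-1 library the HHEX call was lost, with an adjusted p of 0.0837 without the 37 °C library and 0.0854 without the 40 °C library, at log2 differences of -1.26 and -1.28.

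At 40 °C against 37 °C none of the 4 factors that could be tested was called. Over both lines limma called 0 of 14912 genes (0%), with 2905 at an unadjusted p under 0.05. That 0 depends on the genes entered, since 867 were called where the filter was a mean of 5 TPM or more and 1350 among protein-coding genes alone, none of them a factor of the 4. The 4 tested factors had log2 differences of -0.13 for PAX8 (adjusted p = 0.351), -0.05 for NKX2-1 (adjusted p = 0.899), -0.24 for FOXE1 (adjusted p = 0.373) and 0.10 for HHEX (adjusted p = 0.728). The NKX2-1 value averages -0.11 in B-CPAP with 0.0 in TPC-1, where no reads could differ, so it describes B-CPAP alone. Within a line, where 1 library stood against 1 and no test is possible, none of the 4 was 2-fold apart, against 3.9% of genes in B-CPAP and 3.48% in TPC-1. NKX2-1 had no reads to compare in TPC-1.

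**Figure D2:**
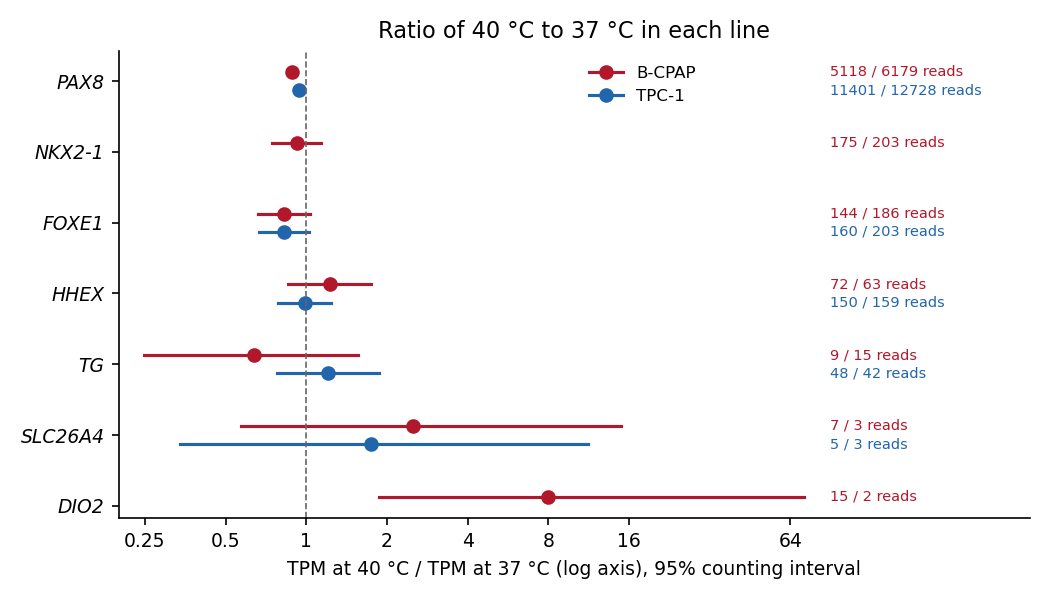
Ratio of TPM at 40 °C to TPM at 37 °C (log axis) with its exact 95% counting interval, for B-CPAP and TPC-1; the reads at 40 °C and at 37 °C stand on the right, and genes with at most 3 reads in both libraries of a line have no point there. The PAX8 intervals lie just left of 1 in both lines, that of DIO2 in B-CPAP lies right of 1, and all the others hold 1.

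PAX8 was slightly lower in the 40 °C library of each line. The ratio was 0.883 (interval 0.851 to 0.917) in B-CPAP and 0.938 (interval 0.914 to 0.962) in TPC-1. At this depth such small shifts are common, since the interval lay below 1 for 21.8% of genes in B-CPAP and 16.1% in TPC-1, and above 1 for 36.4% and 21.5%. FOXE1 had ratios of 0.826 (interval 0.660 to 1.03) in B-CPAP and 0.825 (interval 0.666 to 1.02) in TPC-1. NKX2-1 in B-CPAP had a ratio of 0.920 (interval 0.747 to 1.13). HHEX had 1.22 (interval 0.857 to 1.74) in B-CPAP and 0.988 (interval 0.785 to 1.24) in TPC-1. For these 3 factors a difference between the temperatures was not detectable at this depth.

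Of the low genes, DIO2 in B-CPAP stood apart, with 15 reads at 40 °C and 2 reads at 37 °C, a ratio of 8 (interval 1.86 to 72.1). This rests on few reads in 2 libraries and on no replicate, and in TPC-1 the same gene had 0 and 1 reads. TG had ratios of 0.640 (interval 0.247 to 1.56) in B-CPAP and 1.20 (interval 0.774 to 1.86) in TPC-1. SLC26A4 had 2.49 (interval 0.568 to 14.9) and 1.74 (interval 0.339 to 11.2). TSHR and SLC5A5 had too few reads for a ratio, so neither was seen to appear at 40 °C.

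The GC content of a transcript moved with the temperature difference in these libraries. Over 11819 protein-coding genes, none of them an independent replicate, the rank correlation (Spearman's rho) of GC content with the log2 difference was -0.81 in B-CPAP and -0.59 in TPC-1. The exons of FOXE1 were 60.9% GC, those of NKX2-1 60.0%, of PAX8 54.9% and of HHEX 51.3%, while those of DIO2 were 40.9%, of TSHR 41.4% and of SLC26A4 42.6%. After an adjustment for GC content the log2 difference of PAX8 was -0.06 in both lines, against -0.18 in B-CPAP and -0.09 in TPC-1 before it. That of FOXE1 was 0.01 in B-CPAP and -0.14 in TPC-1, against -0.24 and -0.25, and that of NKX2-1 in B-CPAP was 0.13, against -0.11. HHEX kept 0.22 in B-CPAP and had -0.05 in TPC-1. DIO2, which did not pass the filter, was not adjusted, and the part of GC content in its ratio was not tested. The same holds for the list genes in the paragraphs that follow, whose ratios were not adjusted for GC content. Genes named there with both intervals above 1 had 37.0 to 52.3% GC, and those with both below 1 had 50.2 to 64.2%. Over all genes tested the interval lay above 1 for 36.4% in B-CPAP and 21.5% in TPC-1, and below 1 for 21.8% and 16.1%.

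**Figure D3:**
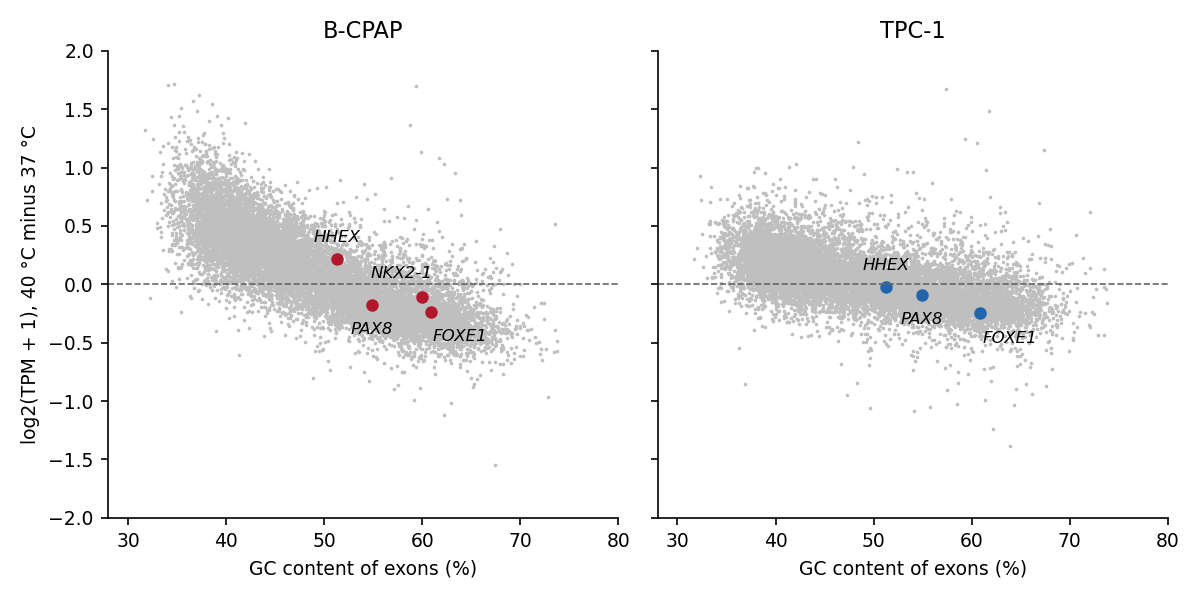
Log2 difference of 40 °C minus 37 °C, in log2(TPM + 1), against the GC content of each gene's exons, for protein-coding genes in B-CPAP and in TPC-1; grey points are genes, coloured points the factors with reads in that line, and 2 grey points of TPC-1 lie beyond the axis. PAX8, FOXE1 and NKX2-1 lie within the cloud at their GC content, on its falling side, and HHEX in B-CPAP lies at 0.22.

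The wider set of 16 thyroid differentiation genes, a score used for thyroid cancers that includes 8 of the 9, was divided in the same way. Of the 16, 6 reached 1 TPM in both B-CPAP libraries and 5 in both TPC-1 libraries, and every gene that did encodes a transcription factor or a nuclear receptor. GLIS3, a zinc finger factor of thyroid development, had 9.37 and 7.02 TPM in B-CPAP at 40 °C and 37 °C, against 19.1 and 19.7 TPM in TPC-1 (log2 difference -1.16, adjusted p = 0.00243). THRA, a thyroid hormone receptor, was higher in B-CPAP (23.3 and 24.3 TPM, against 12.2 and 15.8 TPM in TPC-1; log2 difference 0.74, adjusted p = 0.00666), and THRB lower (2.23 and 1.72 TPM, against 4.29 and 3.86 TPM; -0.77, adjusted p = 0.0194). Of the 6 tested genes 2 were called higher and 3 lower in B-CPAP, with a median log2 difference of -0.57, against -0.05 for all genes tested. This and the counts for the other lists stand against 29.9% of all genes tested called higher and 32.8% lower, and none of them is a test of its list. A gene near 0 in a line passed the filter through the other line alone, which set the direction of its call. The calls of GLIS3, THRA and THRB were lost without either TPC-1 library. That of THRA was also lost without either B-CPAP library, and that of THRB without B-CPAP at 37 °C. THRB was also not called in the limma fit without a filter (adjusted p = 0.0778).

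Genes of iodide oxidation and recycling stayed below 1 TPM in every library. IYD, which recovers iodide from iodotyrosines, had 0 reads in all 4 libraries. DUOX2, an oxidase that makes hydrogen peroxide for hormone synthesis, had 1 read in B-CPAP at 37 °C and none elsewhere. DUOX1 had 9 and 21 reads in B-CPAP at 40 °C and 37 °C, against 48 reads in each TPC-1 library, or 0.147 and 0.320 TPM against 0.946 and 0.904 TPM. Of the 15 further genes of iodide handling, 4 reached 1 TPM in both libraries of each line. These 4 were widely expressed genes of vesicle traffic or protein turnover and a chloride exchanger: VCP and ARF4, PTTG1IP, whose product binds the symporter, and CLCN5. CLCN5 was higher in B-CPAP (10.7 and 7.22 TPM, against 2.80 and 2.73 TPM; log2 difference 1.38, adjusted p = 0.0028), ARF4 higher (0.40, adjusted p = 0.00857) and PTTG1IP lower (275.0 and 302.0 TPM, against 450.1 and 484.6 TPM; -0.69, adjusted p = 0.000709). VCP, an ATPase that extracts proteins for degradation, stood at 662.1 and 734.8 TPM in B-CPAP and 720.7 and 779.0 TPM in TPC-1. Its ratio of 40 °C to 37 °C was 0.901 in B-CPAP and 0.925 in TPC-1, and that of PTTG1IP 0.911 and 0.929, with all 4 intervals below 1. Without either TPC-1 library the calls of CLCN5, ARF4 and PTTG1IP were lost, and those of ARF4 and PTTG1IP also without B-CPAP at 40 °C. ARF4 was also not called in the limma fit without an intensity trend (adjusted p = 0.0708).

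**Figure D4:**
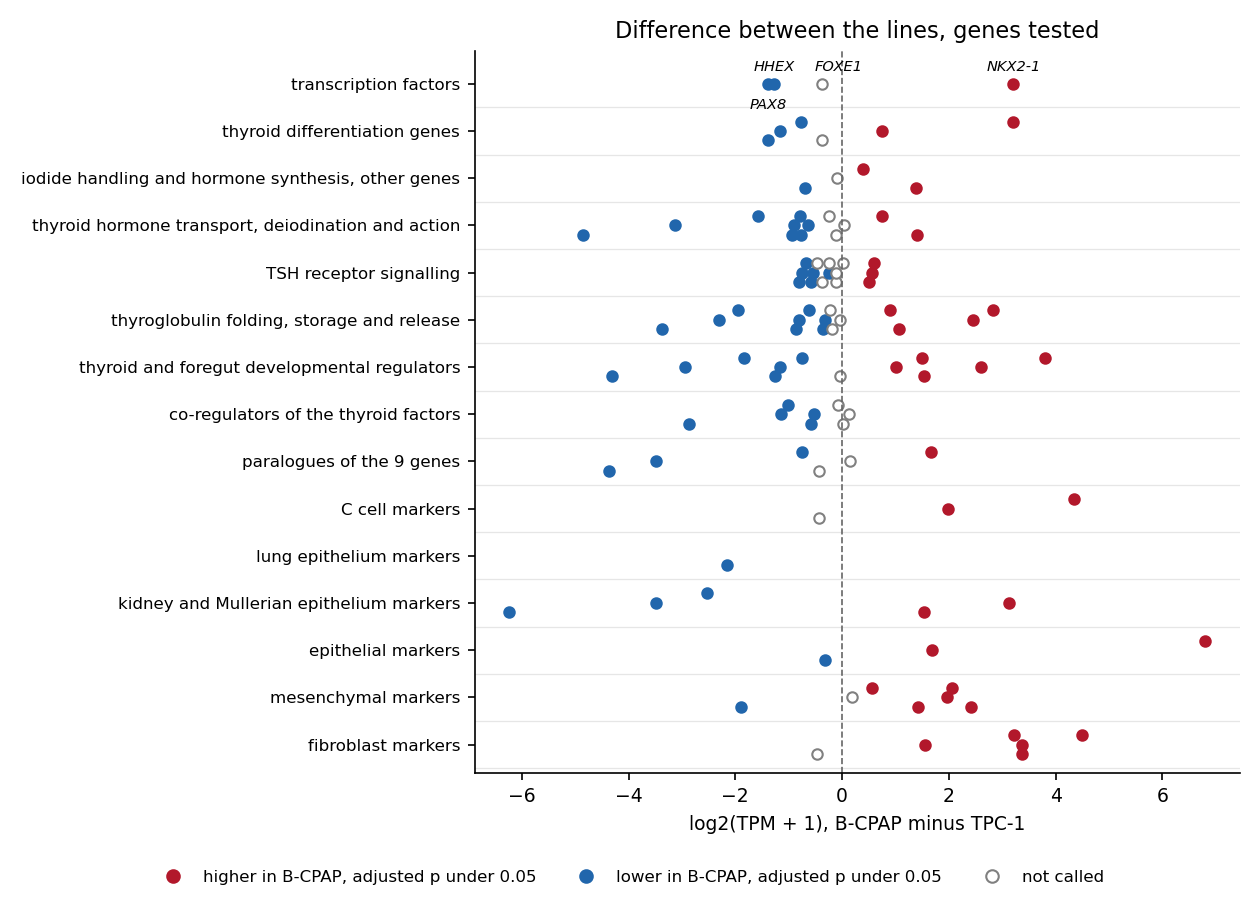
Difference between the lines in log2(TPM + 1), B-CPAP minus TPC-1, for the tested genes of each list; each point is a gene, filled where its adjusted p is under 0.05 in limma. NKX2-1 stands at 3.21 and PAX8 and HHEX at -1.38 and -1.27, while most genes of thyrotropin signalling lie between -0.8 and 0.6.

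Genes downstream of the thyrotropin receptor were expressed in both lines, while the receptor itself had 1 read in all. Of the 16 genes, which leave out TSHR, 15 reached 1 TPM in both libraries of each line, and 3 were called higher and 6 lower in B-CPAP, with a median log2 difference of -0.25, against 29.9% and 32.8% over all genes. GNAS, the stimulatory G protein that TSHR couples to, stood at 200.9 and 209.2 TPM in B-CPAP and 295.0 and 302.4 TPM in TPC-1, and was lower in B-CPAP (-0.54, adjusted p = 0.00194). GNB1 was lower by a log2 difference of -0.25 (adjusted p = 0.0244). ARRB2, a receptor adaptor, was lower (-0.80, adjusted p = 0.00326), as were the G protein GNAQ (-0.75, adjusted p = 0.00538) and the catalytic subunit gene PRKACB (-0.68, adjusted p = 0.0224). PRKAR2A (0.60, adjusted p = 0.00353), the adenylate cyclase gene ADCY3 (0.57, adjusted p = 0.0081) and GNA11 (0.50, adjusted p = 0.00548) were higher. All 8 of these calls were lost without either TPC-1 library, and those of GNB1, GNAQ and GNA11 without any single library (adjusted p from 0.059 to 0.395). GNB1 was also not called under 5 other settings (adjusted p from 0.0592 to 0.332), PRKACB under 2 and GNAQ under 1. ADCY3 and PRKACB also lost theirs without B-CPAP at 37 °C. PRKACA stood at 71.4 and 82.6 TPM in B-CPAP and 78.7 and 87.8 TPM in TPC-1. Between temperatures, the interval lay above 1 in both lines for GNAQ (ratio 1.58 in B-CPAP and 1.26 in TPC-1) and CREM, a cyclic AMP-responsive factor (1.55 and 1.19), and below 1 for GNA11 (0.844 and 0.899).

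Among genes of thyroid hormone transport, deiodination and action, 11 of 17 reached 1 TPM in all 4 libraries, 1 more in B-CPAP alone and 1 more in TPC-1 alone. Of the 13 tested, 2 were called higher and 8 lower in B-CPAP, with a median of -0.77, against 29.9% higher and 32.8% lower over all genes tested. SLC7A5, an amino acid transporter that also carries thyroid hormone, had 82.8 and 114.5 TPM in B-CPAP at 40 °C and 37 °C, against 833.8 and 878.4 TPM in TPC-1 (-3.12, adjusted p = 5.74e-05), and its partner SLC3A2 114.6 and 153.4 TPM, against 198.0 and 215.8 TPM (-0.64, adjusted p = 0.0038). The receptor partner RXRA was lower in B-CPAP (-1.57, adjusted p = 0.000375), and CRYM, which binds the hormone in the cytosol, higher (2.12 and 1.77 TPM, against 0.14 and 0.09 TPM; 1.40, adjusted p = 0.00732). Of these, the call of SLC3A2 was lost without either TPC-1 library or B-CPAP at 40 °C (adjusted p from 0.0812 to 0.222). RXRB stood at 49.9 and 58.4 TPM in B-CPAP and 60.5 and 67.3 TPM in TPC-1. The ratio of 40 °C to 37 °C was 0.723 in B-CPAP and 0.949 in TPC-1 for SLC7A5, and 0.747 and 0.918 for SLC3A2, with all intervals below 1. The other deiodinase genes were low, with DIO1 at 0.08 to 0.23 TPM and DIO3 at 0 reads in every library.

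Most genes that fold, store and release thyroglobulin were expressed in both lines, and most serve many other proteins as well. Of the 17, 11 reached 1 TPM in all 4 libraries, 2 more in B-CPAP alone and 2 more in TPC-1 alone, and 4 of 15 tested were called higher and 8 lower in B-CPAP, with a median of -0.32, against the same 29.9% and 32.8% over all genes. Of the chaperones, CALR stood at 2151 and 2193 TPM in B-CPAP and 2582 and 2961 TPM in TPC-1 (-0.35, adjusted p = 0.00593), HSPA5 at 996.9 and 834.3 TPM, against 1080 and 984.4 TPM, and PDIA4 at 553.1 and 481.6 TPM, against 513.6 and 539.8 TPM. The lysosomal proteases split. CTSB was lower in B-CPAP (349.6 and 388.7 TPM, against 1372 and 1454 TPM; -1.94, adjusted p = 4.27e-05), as was CTSK (-2.30, adjusted p = 0.001), whereas CTSL (416.5 and 326.7 TPM, against 182.4 and 171.3 TPM; 1.06, adjusted p = 0.000552) and CTSS (8.11 and 5.14 TPM, against 0 and 0.12 TPM; 2.82, adjusted p = 0.000822) were higher. The sorting receptor gene SORL1 was higher (2.46, adjusted p = 0.000827). CDH16, a cadherin of thyroid and kidney, had 0 and 1 reads in B-CPAP, against 217 and 195 reads, or 10.3 and 8.80 TPM, in TPC-1 (-3.37, adjusted p = 0.000249). The call of CTSL was lost without either TPC-1 library (adjusted p of 0.0665 and 0.0769), and that of CALR without any single library (adjusted p from 0.192 to 0.377) and under 4 other settings (adjusted p from 0.0501 to 0.0902). The megalin gene LRP2 had at most 0.01 TPM and TFF3 at most 0.12 TPM in any library. At 40 °C against 37 °C the intervals lay below 1 for CTSD (ratios of 0.801 in B-CPAP and 0.803 in TPC-1) and above 1 for HSPA5 (1.19 and 1.10) and CTSL (1.27 and 1.06).

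The partners with which PAX8 and NKX2-1 act were all transcribed. All 8 co-regulators reached 1 TPM in both lines, none was called higher and 5 were called lower in B-CPAP, with a median of -0.56, against 32.8% lower over all genes. WWTR1, also called TAZ, a coactivator of both factors, had 20.9 and 15.5 TPM in B-CPAP, against 147.1 and 128.7 TPM in TPC-1 (-2.87, adjusted p = 6.23e-05). PARP1 (131.1 and 113.6 TPM, against 266.9 and 273.1 TPM; -1.14, adjusted p = 0.00045) and RB1 (-1.01, adjusted p = 0.00686) were also lower, although the RB1 call was lost without either TPC-1 library or B-CPAP at 37 °C (adjusted p from 0.126 to 0.294). RB1 was also not called in the fit without a block (adjusted p = 0.0568). APEX1, which acts on the redox state of both factors, stood at 387.1 and 409.7 TPM in B-CPAP and 410.3 and 424.2 TPM in TPC-1. Between temperatures the intervals lay above 1 in both lines for the redox protein gene TXN (ratios of 1.39 in B-CPAP and 1.40 in TPC-1), HMGB1 (1.52 and 1.28) and RB1 (1.96 and 1.19).

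Several developmental regulators of thyroid and foregut passed 1 TPM in a single line. Of 18 thyroid and foregut regulators 7 reached 1 TPM in all 4 libraries, 3 more in B-CPAP alone and 3 more in TPC-1 alone, and 5 of 12 tested were called higher and 6 lower in B-CPAP, with a median of -0.39. GATA4 had 12.4 and 13.4 TPM in B-CPAP, against 0 reads in TPC-1 (3.80, adjusted p = 0.000138), while FOXA2 had 0 reads in B-CPAP, against 5.65 and 7.81 TPM in TPC-1 (-2.94, adjusted p = 0.000485). GATA6 was lower in B-CPAP (3.84 and 3.99 TPM, against 17.1 and 16.2 TPM; -1.84, adjusted p = 0.000446), and so was the ligand gene BMP4 (0 and 0.04 TPM, against 20.9 and 17.4 TPM; -4.30, adjusted p = 0.0001). HOXB3 (6.08 and 5.16 TPM, against 0.16 and 0.02 TPM; 2.60, adjusted p = 0.000569), EYA1 (1.54, adjusted p = 0.00184) and SOX9 (27.2 and 22.5 TPM, against 12.9 and 10.8 TPM; 1.01, adjusted p = 0.00152) were higher. The EYA1 call was lost without either TPC-1 library (adjusted p of 0.0622 and 0.0716), and the SOX9 call without any single library (adjusted p from 0.0541 to 0.125). SOX9 had ratios of 40 °C to 37 °C of 1.21 in B-CPAP and 1.20 in TPC-1, with intervals above 1.

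The relatives of PAX8, PAX2 and PAX5, were lower in B-CPAP, as PAX8 was. PAX5 had 0 and 0.03 TPM in B-CPAP at 40 °C and 37 °C, against 21.1 and 18.6 TPM in TPC-1 (-4.36, adjusted p = 8.79e-05), and PAX2 had 0.05 and 0 TPM, against 9.68 and 11.2 TPM (-3.48, adjusted p = 0.000219). NKX2-5, a heart factor that is also expressed in the thyroid bud, was read in both lines (3.77 and 4.52 TPM, against 7.52 and 7.75 TPM; -0.75, adjusted p = 0.0118), a call lost without either TPC-1 library or B-CPAP at 40 °C (adjusted p from 0.0645 to 0.193). Of the 22 paralogues 4 reached 1 TPM in both libraries of B-CPAP and 6 in TPC-1, and 1 of 6 tested was called higher and 3 lower in B-CPAP, with a median of -0.60. The gene called higher was the vitamin transporter gene SLC5A6 (1.67, adjusted p = 0.000291; 0.0564 without TPC-1 at 40 °C), a relative of the symporter gene, with ratios of 40 °C to 37 °C of 0.752 in B-CPAP and 0.808 in TPC-1. SLC26A6 stood at 9.89 and 10.96 TPM in B-CPAP and 9.78 and 8.85 TPM in TPC-1, and SLC26A11 at 4.96 and 4.97 TPM and at 7.52 and 6.71 TPM, against the handful of reads of their relative SLC26A4.

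Several of the 9 genes overlap transcripts of the other strand, which the kit cannot tell apart. PAX8-AS1 shares 685 exonic bases, or 9.3% of the exon length, with PAX8, and NKX2-1-AS1 shares 402 bases, or 12.7%, with NKX2-1, so levels in these stretches are uncertain. PAX8-AS1 stood at 4.92 and 4.0 TPM in B-CPAP at 40 °C and 37 °C, against 6.06 and 3.71 TPM in TPC-1. Its ratio of 40 °C to 37 °C was 1.23 (interval 1.09 to 1.39) in B-CPAP and 1.63 (interval 1.43 to 1.86) in TPC-1, while that of PAX8 was below 1 in both. SLC26A4-AS1 and DIO2-AS1 had 0 reads in every library. PTCSC3, a noncoding RNA of a thyroid cancer risk region, had 1 read in each B-CPAP library and none in TPC-1.

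Since PAX8, NKX2-1 and HHEX also mark other organs, the markers of those were read beside them. Surfactant transcripts were at or near 0 in B-CPAP, with 1 read of SFTPD at 40 °C and 2 reads of SFTPA1 at 37 °C. The 8 lung markers summed to 0.11 and 0.57 TPM in B-CPAP at 40 °C and 37 °C, against 4.92 and 4.25 TPM in TPC-1, nearly all of it SCGB1A1 (-2.15, adjusted p = 0.00178). SCGB1A1 rested on few reads, with 0 and 2 in B-CPAP at 40 °C and 37 °C, against 15 in each TPC-1 library. Its log2 difference ran from -4.23 to -0.84 over the alternatives. SFTPB, SFTPC and NAPSA had 0 reads in both B-CPAP libraries. PAX8 in TPC-1 came with kidney and Mullerian markers, of which the 7 summed to 21.8 and 19.6 TPM in B-CPAP and 111.6 and 116.5 TPM in TPC-1. The cadherin gene CDH6 was lower in B-CPAP (-2.53, adjusted p = 0.000448), while HOXA11 (3.12, adjusted p = 0.000321) and LHX1 (1.53, adjusted p = 0.000982; 0.054 to 0.0802 without either TPC-1 library or B-CPAP at 40 °C) were higher, and EMX2 had 0 reads in all libraries. The part of another lineage in the levels of PAX8 and NKX2-1 was not tested.

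Of 8 markers of the calcitonin-producing C cell, the other endocrine cell of the thyroid, 3 could be tested. Of those 3, 2 were called higher in B-CPAP and none lower, against 29.9% higher and 32.8% lower over all genes tested. Both of them, CALCA and SCG2, passed the filter through B-CPAP alone, so only a higher call was possible. CALCA, the calcitonin gene, had 20.4 and 18.5 TPM in B-CPAP at 40 °C and 37 °C, against 0 reads in both TPC-1 libraries (4.35, adjusted p = 8.49e-05). SCG2 was higher as well (5.44 and 2.50 TPM, against 0.13 and 0.26 TPM; 1.99, adjusted p = 0.0047; 0.0721 and 0.0821 without either TPC-1 library). Other markers of that cell, picked out for their low values, were at or near 0, with GFRA4 at 0 reads in all 4 libraries, CHGA at most 0.09 TPM and CHGB at most 0.23 TPM. SYP stood at 0.77 and 0.93 TPM in B-CPAP and 1.63 and 1.40 TPM in TPC-1. The list summed to 26.8 and 22.1 TPM in B-CPAP and 1.76 and 1.87 TPM in TPC-1.

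The keratins KRT7, KRT8 and KRT18 were expressed in both lines, while the other 5 markers did not reach 1 TPM in both libraries of either line. KRT19 had 0.06 and 0.29 TPM in B-CPAP at 40 °C and 37 °C, against 0.96 and 1.42 TPM in TPC-1. Of 8 epithelial markers, CDH1 reached at most 0.04 TPM and ESRP1 0 reads, and EPCAM stood at 1.99 and 0.74 TPM in B-CPAP and 0.07 and 0 TPM in TPC-1. KRT7 stood at 588.9 and 754.2 TPM in B-CPAP, against 5.15 and 4.84 TPM in TPC-1 (6.80, adjusted p = 1.93e-05), and KRT8 higher (1.69, adjusted p = 8.89e-05) and KRT18 lower in B-CPAP (-0.32, adjusted p = 0.0141). All 7 mesenchymal markers reached 1 TPM in both lines, and 5 were called higher and 1 lower in B-CPAP, against 29.9% and 32.8% over all genes. They included VIM (2588 and 2678 TPM, against 1708 and 1847 TPM; 0.57, adjusted p = 0.000656), FN1 (5382 and 4788 TPM, against 1427 and 1195 TPM; 1.96, adjusted p = 3.17e-05), CDH2 (1.43, adjusted p = 0.000466), SNAI2 (2.06, adjusted p = 0.000151), TWIST1 (2.41, adjusted p = 0.000384) and, on the lower side, ZEB1 (-1.90, adjusted p = 0.000923). Of 8 fibroblast markers 6 were tested and 5 were called higher in B-CPAP and none lower, against the same shares. COL1A2, COL3A1, LUM and POSTN, with at most 1 read in a TPC-1 library, passed the filter through B-CPAP alone. For them only a higher call was possible, so the count says nothing about the list. Called higher, among others, were POSTN (29.6 and 15.8 TPM, against 0 reads, log2 difference 4.50, adjusted p = 0.000199), LUM (3.37, adjusted p = 0.000454), COL3A1 (3.37, adjusted p = 0.000278) and COL1A1 (1.55, adjusted p = 0.000982). PDGFRB stood at 4.65 and 4.15 TPM in B-CPAP and 6.72 and 6.19 TPM in TPC-1. Calls were lost without any single library for KRT18 and VIM, without either TPC-1 library for ZEB1 and COL1A1, and without either B-CPAP library for TWIST1 (adjusted p from 0.0561 to 0.614). KRT18 was also not called under 3 other settings (adjusted p from 0.0991 to 0.194). Leukocyte and endothelial markers summed to 0.20 and 0.55 TPM in B-CPAP and 0.94 and 1.45 TPM in TPC-1, with PTPRC and CD3E at 0 reads. Between temperatures the intervals lay below 1 in both lines for KRT8 (0.756 and 0.827), KRT18 (0.782 and 0.833) and VIM (0.966 and 0.925), and above 1 for FN1 (1.12 and 1.19) and ZEB1 (1.85 and 1.10).

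Likeness of profile was measured as the Euclidean distance in log2(TPM + 1) over the 4 libraries, which share their processing and differ somewhat in depth, among protein-coding genes. The nearest to NKX2-1 were MEOX2, a homeobox gene (distance 0.05; 7.84 and 8.25 TPM in B-CPAP and 0 reads in TPC-1), NACAD and SERP2 (0.10 each). The nearest to PAX8 were the mitochondrial phosphate carrier gene SLC25A3 (0.17; 108.1 and 113.4 TPM in B-CPAP, against 263.8 and 262.7 TPM in TPC-1), TSPO (0.30) and TMEM158 (0.33). Those nearest to FOXE1 were TMCC2 (0.17), GDPD5 (0.24) and DGKQ (0.24), and those nearest to HHEX were GLIS1, APOBEC3G and FHIP1A (0.18 each).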

How the data were processed

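RNA of 2 cell lines at 2 temperatures was sequenced in 4 libraries, 1 per group. The labels' protocols name RNeasy Plus for extraction and, for the libraries, TruSeq RNA Library Prep Kit v2, which does not mark strand. FastQC, MultiQC, Trimmomatic 0.38, featureCounts 2.0.0 and GRCh38 are named, per the submitters' processing notes; which aligner and annotation release were used is not given in the sources used here. Values were deposited by the authors as TPM per Ensembl gene, 1 column a library.

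Of 58884 gene IDs, 58611 (99.5%) were matched to GENCODE 29 (GRCh38), which gave names, coordinates, exon lengths and GC content. TPM multiplied by exon length fell in steps of 1 read: 90.5 to 92.0% of values up to 20 reads came within 0.02 of a whole read, as did 65.7 to 67.5% of those from 20 to 200. The rounded reads gave exact (Clopper-Pearson) intervals; a count of 0 was allowed up to 3 reads. These cover counting error only.

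limma 3.58.1 (R 4.3.3) was fitted to log2(TPM + 1) with an intensity trend, line and temperature as terms, two-sided p-values and a threshold of 0.05 after Benjamini-Hochberg adjustment over 14912 genes (mean TPM 1 or more). With 1 library a group and no cultures named, p-values rest only on the spread between these libraries, drawn by empirical Bayes toward that of all genes entered. The scale understates changes of low genes. The fit code was also run on simulated data with few changed genes, unlike the comparison of lines, and no result here rests on it. Beside the 9 genes, 16 lists were described by counts and medians. Named from each were up to 4 genes by level, up to 3 called each way between lines and up to 3 whose intervals excluded 1 the same way in both lines, with DUOX1, DUOX2, IYD and GLIS3 in every case; some genes that this rule names are not reported here. EMX2, GFRA4, CHGA, CDH1, ESRP1, LRP2, TFF3, SLC26A4-AS1, DIO2-AS1, DIO1, DIO3, PTPRC and CD3E were named after their low values were seen, and SFTPA1, SFTPD, KRT19, CANX and NCOA1 after their values were seen. The 9 genes and the lists were chosen with earlier results of these data known. Alternatives were other pseudocounts, filters, scalings, a lowess adjustment for GC content (span 0.3), other fit settings and leaving out 1 library. Sequences are RefSeq promoters (GRCh38.p14).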

Additional observations from a re-analysis of the deposited data

Results flagged for a closer look

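PDIA4, a chaperone gene of the thyroglobulin list, had counting intervals on opposite sides of 1 in the lines, with a 40 °C to 37 °C ratio of 1.15 (interval 1.12 to 1.18) in B-CPAP and 0.952 (interval 0.926 to 0.978) in TPC-1. CANX, another chaperone gene of that list, had 1.36 (interval 1.32 to 1.40) in B-CPAP and 0.934 (interval 0.913 to 0.956) in TPC-1. NCOA1, a nuclear receptor coactivator gene, had 1.46 (interval 1.26 to 1.69) in B-CPAP and 0.855 (interval 0.759 to 0.962) in TPC-1. The differences between the lines were not tested, since each temperature had 1 library in each line.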

How the results depend on the processing

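The fits paired the libraries by temperature for the comparison of lines, and by line for that of temperatures. No pairing by replicate was possible, with 1 library a group. Of the factors, PAX8 and NKX2-1 were called between the lines under every alternative that tested them, with log2 differences of -1.47 to -1.25 and 1.41 to 6.38; HHEX, at -1.46 to -0.82, was not called without either TPC-1 library, and FOXE1, at -0.50 to -0.25, was called on GC-adjusted values alone. Without a library, 2911 to 5719 genes were called between the lines, against 9349 with all 4, in fits that assume the lone library of a line to vary like the other line; 2 or 3 of the 4 factors were called. Of 64 named genes called between the lines, 31 lost the call without at least 1 library. Centring on the median raised every difference between the lines by 0.13 and lowered the differences between temperatures by 0.18 in B-CPAP and 0.09 in TPC-1. Between temperatures, none of the 3 to 8 of these genes that an alternative could test was called, and no fit left out a library, but 2 genes were at a pseudocount of 5, 49 with median centring, 867 at a mean TPM of at least 5 and 1350 among protein-coding genes only. NKX2-1 turned to 0.11 on GC-adjusted values. That value averages 0.13 in B-CPAP with 0.1 in TPC-1, which the adjustment alone gave to libraries without NKX2-1 reads. HHEX turned to -0.03 with median centring and -0.04 with quantile normalization. Genes 2-fold apart, 582 in B-CPAP and 519 in TPC-1, numbered 1246 and 987 at a pseudocount of 0.1, 82 and 89 at a pseudocount of 5, 1143 and 1291 without a filter, 175 and 63 at a mean TPM of at least 5, and 137 and 18 among protein-coding genes. In B-CPAP these split into 414 higher and 168 lower, against 243 and 231 with median centring, 286 and 248 with quantile normalization and 217 and 197 after GC adjustment. The causes were not tested. B-CPAP held 5 of the 9 genes at 0.1 TPM and 3 at 5 TPM, and TPC-1 held 4 and 3. Depth limits the 5 low genes, of which only TG had over 20 reads in any library.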
